A study of Mus musculus with 16 samples.

Results

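The genes described here drive or brake the mouse cell cycle: 46 genes, taken by name from the 41325 genes of the deposited tables. They fall into 5 roles, namely 8 G1 cyclins and cyclin-dependent kinases (CDKs), 3 pocket protein and E2F genes, 12 genes of replication licensing and DNA synthesis, 17 genes of G2 and mitosis, and 6 CDK inhibitors. They were selected by gene name, with no threshold on a measured value. All 46 passed the filter on low counts in every comparison, so each was tested.

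The cells were immortalized wild-type preadipocytes of the C57Bl6/J mouse strain, precursors of fat cells that can be turned into adipocytes in culture. How the line was immortalized, and whether it is a single clone, is not given in the sources used here. There were 4 groups of 4 libraries: cells pre-treated for 16 h with interleukin-13 (IL-13, a type 2 immune cytokine) and taken at day 6 of differentiation, cells left without the agent and taken at day 6, and the IL-13 pre-treated and the untreated cells of day 0. All groups share the line and the genotype, and differ in the pre-treatment and the day. The library numbers of the days form separate runs, so the day cannot be told apart from anything else that went with it. Whether the 4 libraries of each group are separate cultures is not stated in the labels, so the p-values reflect the spread between libraries, which may be technical.

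As background, growth signals reach the cell cycle through D-type cyclins, which bind Cdk4 and Cdk6 and phosphorylate the retinoblastoma (Rb) family of pocket proteins. Phosphorylated pocket proteins release E2F factors, which switch on cyclin E, the licensing helicase and the enzymes of DNA synthesis, while mitotic genes are switched on later through B-Myb and Foxm1. CDK inhibitors of the Ink4 group block Cdk4 and Cdk6, and those of the Cip/Kip group bind several cyclin-CDK complexes. Preadipocytes leave the cell cycle as they become adipocytes, and both Rb1 and the CDK inhibitors have known parts in that exit.

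Messenger RNA was counted per gene, and library totals lay between 15253031 and 18112087 counts. Levels are given as CPM (counts scaled to library size), scaled over all 16 libraries by the trimmed mean of M values (TMM), and levels of different genes are set against each other only as TPM, which allows for gene length as well. A gene is said to rise or fall where edgeR's quasi-likelihood test gave an adjusted p under 0.05 over all genes tested, and fold changes are log2 values ± SE. The labelled cells matched their markers: 7 of 7 tested adipocyte markers rose by day 6 in both arms, with summed levels of 24649.7 to 26549 CPM in IL-13 pre-treated and 23624 to 25490.5 CPM in untreated cells at day 6, against 469 to 491 and 505 to 546 CPM in the same arms at day 0. The 8 preadipocyte and fibroblast markers summed to 2188 to 2786 CPM in IL-13 pre-treated and 2234 to 2798.5 CPM in untreated cells at day 6, against 13092 to 14688 and 8511 to 11724 CPM in the same arms at day 0. By day 6, 6 of them fell and 1 rose in IL-13 pre-treated cells, and 5 fell and 2 rose in untreated cells, with Dcn, a matrix proteoglycan, higher in both arms. These markers thus moved with IL-13 at day 0, where their sums did not overlap and 4 of 8 were higher and 1 lower, and their part in the IL-13 differences of day 0 was not tested. Markers of macrophages summed to at most 11.9 CPM, with Adgre1 at 0 in every library, and those of lymphocytes to at most 0.522 CPM. A response to IL-13 was present at day 0, where Cish, a feedback inhibitor of cytokine receptors, stood at 68.4, 77.9, 72.0 and 69.5 CPM in the 4 IL-13 libraries and 9.89, 9.98, 9.84 and 11.7 CPM in the 4 untreated libraries. Cish was 1 of 6 listed IL-13 response genes, of which 4 were higher, 1 lower and 1 not called. Over all genes tested at day 0, 23.7% were higher and 24.2% lower. One further feature moved with IL-13: an index of nuclear RNA, the mean log2 CPM of 23 nuclear-retained and splicing RNAs such as Malat1. The index was 4.71 to 4.97 in IL-13 and 5.29 to 6.15 in untreated libraries of day 0. At day 6 it was 4.95 to 5.68 in IL-13 and 6.04 to 6.69 in untreated libraries. These RNAs were chosen with earlier results of these data known, so no p-value is given for the separation. Because the ranges did not overlap on either day, a fit with the index as covariate cannot separate IL-13 from the index.

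By day 6 of differentiation the genes of mitosis had fallen nearly together, while the genes of DNA replication had gone both ways, as all genes did. Cyclin D1 was almost gone, and Rb1, both E-type cyclins and the inhibitors Cdkn1a and Cdkn2c had risen. In untreated cells 13 members rose and 23 fell between the days, 36 of 46 in all, with 80.5% of all 13157 genes tested called in that comparison (41.5% higher, 39% lower). In IL-13 pre-treated cells 12 rose and 23 fell, with 80.8% of all genes called (40.6% higher, 40.3% lower). The number of members called is near that background. The median log2 fold change of the 46 members was -0.18 in IL-13 pre-treated and -0.16 in untreated cells, against 0.00 and 0.04 for all genes. Both arms called 22 members lower and 11 higher, none in opposite directions, 5 in one arm alone and 8 in neither. The same split over all genes was not counted, so this agreement cannot be set against a background. In a bulk sample, fewer cycling cells and less RNA per cycling cell cannot be told apart. The nuclear RNA index was on average also higher at day 6 in each arm, with overlapping ranges. Of the calls, 33 of 36 in untreated cells and 33 of 35 in IL-13 pre-treated cells held in every alternative tried, including a fit with the index as a covariate.

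Among the G1 cyclins, Ccnd1 (cyclin D1, chr7:144929931-144939925, minus strand, in the mm10 coordinates of the tables) showed the widest change of the 46. In untreated cells its 4 libraries of day 6 held 0.644, 0.297, 1.12 and 0.638 CPM, against 101, 100.05, 116 and 105 CPM at day 0. The IL-13 pre-treated cells held 0.742, 0.496, 0.669 and 0.350 CPM at day 6, against 69.4, 85.0, 81.3 and 65.1 CPM at day 0. No library of day 6 came near one of day 0, and the fall of -7.30 ± 0.17 on the log2 scale in untreated cells (adjusted p = 4.5e-19) makes day 6 157-fold lower than day 0. That placed Ccnd1 at rank 30 from the lowest of the 13157 genes tested. For IL-13 pre-treated cells the log2 change was -7.05 ± 0.17 (adjusted p = 1.6e-18). At day 6 the libraries held few counts of this gene, which limits the precision of its level there. Of its exon bases, 23.4% overlap an opposite-strand gene, and whether the counting used the strand is not given in the sources used here.

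Ccnd2 (cyclin D2, chr6:127125162-127152193, minus strand) and Ccnd3 (cyclin D3), which pair with the same kinases, did not follow Ccnd1. Ccnd2 stood at 674, 685, 651 and 611 CPM at day 6 and 657, 687, 698 and 653 CPM at day 0 in untreated cells, ranges that overlap (-0.04 ± 0.06, adjusted p = 0.51). In IL-13 pre-treated cells Ccnd2 rose by day 6 (0.58 ± 0.06, adjusted p = 5.6e-09) from a lower level at day 0, as given further on. Ccnd3 ran from 77.7 to 93.9 CPM at day 6 and 67.7 to 87.3 CPM at day 0 in untreated cells (0.19 ± 0.09, adjusted p = 0.065) and passed the test in neither arm. On the TPM scale, cyclin D2 was the main D-type transcript in every group. It made up 87.4% ± 1.35 of the summed D-type TPM in untreated cells at day 6 and 69.8% ± 1.46 at day 0 (SD, n = 4). Ccnd1 made up 0.181% ± 0.0903 at day 6 and 21.8% ± 0.844 at day 0.

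The E-type cyclins, which activate Cdk2 at the start of S phase, moved the other way. Ccne1 stood at 81.9, 70.7, 74.9 and 81.4 CPM in untreated cells at day 6, against 26.2, 24.8, 26.3 and 25.8 CPM at day 0, a rise of 1.58 ± 0.08 (adjusted p = 8.8e-14) and 2.99-fold. Ccne2 stood at 95.1, 90.3, 78.4 and 76.9 CPM at day 6, against 20.0, 22.2, 17.6 and 17.9 CPM at day 0, a rise of 2.13 ± 0.10 (adjusted p = 9.1e-14) and 4.39-fold. Every day 6 library lay above every day 0 library for both genes, also in IL-13 pre-treated cells, where the rises were 1.54 ± 0.08 for Ccne1 and 1.92 ± 0.10 for Ccne2. Their kinase Cdk2 rose as well (0.96 ± 0.09 in untreated and 0.91 ± 0.10 in IL-13 pre-treated cells), with 103 to 131 CPM at day 6 and 50.4 to 67.5 CPM at day 0 in untreated cells. The kinases of the D-type cyclins parted: Cdk4 fell (-0.93 ± 0.05, 326 to 357 CPM at day 6 against 615 to 686 CPM at day 0 in untreated cells) and Cdk6 rose (1.74 ± 0.12, 35.4 to 45.8 CPM at day 6 against 10.7 to 13.2 CPM at day 0). Cdk4 remained the more abundant on the TPM scale, with 97.4% ± 0.421 of the summed TPM of the pair at day 6 and 99.6% ± 0.0564 at day 0 in untreated cells.

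**Figure D1:**
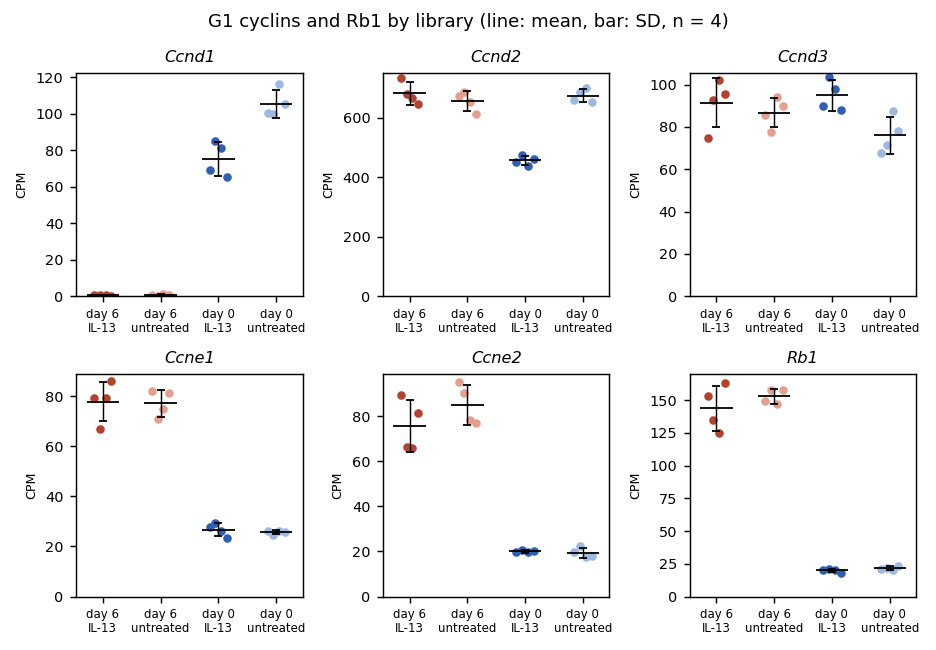
CPM of 5 G1 cyclins and Rb1 in each library, with 4 libraries a group (points), their mean (line) and SD (bar), the groups along the x axis. Ccnd1 is at 1.12 CPM or less in every day 6 library, Ccne1, Ccne2 and Rb1 are higher in every day 6 library than in any of day 0, and Ccnd2 is lowest in the IL-13 libraries of day 0.

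Rb1 (chr14:73183673-73325822, minus strand), the pocket protein that holds E2F factors off their targets, rose further than any other member. Its untreated libraries held 149, 157, 147 and 158 CPM at day 6, against 21.3, 21.7, 20.4 and 23.5 CPM at day 0. Its IL-13 libraries held 153, 135, 125 and 163 CPM at day 6, against 20.4, 21.3, 19.9 and 18.1 CPM at day 0. The groups were far apart: day 6 was 7.03-fold higher in untreated cells (2.81 ± 0.08, adjusted p = 6e-18) and 7.22-fold higher in IL-13 pre-treated cells (2.85 ± 0.08, adjusted p = 5.9e-18). Rbl1, which encodes the pocket protein p107, rose less (0.62 ± 0.07 in untreated cells, adjusted p = 1.6e-07), with 78.8, 71.1, 72.0 and 68.9 CPM at day 6 and 50.4, 47.9, 43.7 and 47.7 CPM at day 0. Rb1 made up 60.1% ± 1.63 of the summed TPM of Rb1, Rbl1 and Rbl2 at day 6 and 18.5% ± 0.794 at day 0 in untreated cells, so the leading pocket protein transcript was another one on the earlier day. E2f1, the activator that Rb1 restrains, held 46.4, 43.4, 46.9 and 51.9 CPM at day 6 and 47.2, 50.4, 53.3 and 48.3 CPM at day 0 in untreated cells. Its groups overlapped and it did not pass the test (-0.08 ± 0.07, adjusted p = 0.32). Of the exon bases of Rb1, 14.9% overlap genes on the opposite strand, and of those of Ccne2, 17.4%.

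Of the 12 genes of replication some rose and others fell. In untreated cells 5 rose, 3 fell and 4 did not pass the test, with a median of 0.05 (all genes: 41.5% higher, 39% lower). In IL-13 pre-treated cells 3 rose, 4 fell and 5 did not pass, with a median of 0.00 (all genes: 40.6% higher, 40.3% lower). The rises were led by Rrm2, the regulated subunit of ribonucleotide reductase, which makes the building blocks of DNA. It stood at 334, 310.3, 329.7 and 348 CPM in untreated cells at day 6, against 174, 168, 167 and 161 CPM at day 0 (0.98 ± 0.07, adjusted p = 2.1e-11). Its partner subunit Rrm1 did not pass the test in either arm (-0.11 ± 0.06 in untreated cells), and its untreated libraries of day 6 lay within the range of day 0. Pcna, the sliding clamp of DNA polymerase, stood at 271, 260.0, 275 and 301 CPM at day 6, against 192, 192, 192 and 195 CPM at day 0 (0.52 ± 0.05, adjusted p = 1.7e-08). A pseudogene shares 19.1% of the stretches of 50 bases of its exons, so some of its reads could have been assigned elsewhere. Cdt1, which loads the helicase on origins, rose in both arms (0.44 ± 0.09 and, in IL-13 pre-treated cells, 0.25 ± 0.09), a call that the IL-13 arm lost without its day 6 library 3. Mcm2 (0.26) and Tyms (0.21), which makes thymidylate, rose in untreated cells alone, and the difference between the arms passed the test for neither gene. The call of Tyms was lost without untreated library 1 or 4 of day 0 or 4 of day 6 and under scaling by total counts.

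The falls among the replication genes were all in the Mcm2-7 helicase, which unwinds DNA ahead of the fork. Mcm6 held 341, 338, 371 and 371 CPM at day 6 in untreated cells, against 467, 505, 523 and 447 CPM at day 0 (-0.45 ± 0.06, adjusted p = 4.5e-07). Mcm4 changed by -0.42 ± 0.06 and Mcm5 by -0.23 ± 0.06 in the same cells, and IL-13 pre-treated cells showed -0.48, -0.39 and -0.31 for Mcm6, Mcm4 and Mcm5, with Mcm3 also lower (-0.17). In untreated cells the libraries of the 2 days did not overlap for Mcm6, Mcm4 or Mcm5. With the nuclear index as covariate, the call of Mcm5 in untreated and that of Mcm3 in IL-13 pre-treated cells was lost. The origin loader Cdc6 and Mcm7 passed the test in neither arm.

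The 17 genes of G2 and mitosis mostly fell. In untreated cells 16 fell, none rose, and Cenpa, the histone that marks centromeres, did not pass the test (-0.13 ± 0.06, adjusted p = 0.051). In IL-13 pre-treated cells 15 fell and none rose, and Cdk1 joined Cenpa as not called (-0.02 ± 0.05, adjusted p = 0.78). Over all genes tested, 40.3% were lower and 40.6% higher in IL-13 pre-treated cells, and 39% lower and 41.5% higher in untreated cells. The median of the 17 genes was -0.52 in IL-13 pre-treated and -0.70 in untreated cells, against 0.00 and 0.04 for all genes. The mean log2 CPM over the 17 genes was 6.13 to 6.27 in IL-13 and 6.19 to 6.23 in untreated libraries of day 6, against 6.83 to 6.88 and 6.91 to 6.94 in the same arms at day 0, so no library of day 6 reached one of day 0. The 12 replication genes averaged 7.29 to 7.47 over both arms at day 6 and 7.25 to 7.44 at day 0, and these ranges overlap.

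**Figure D2:**
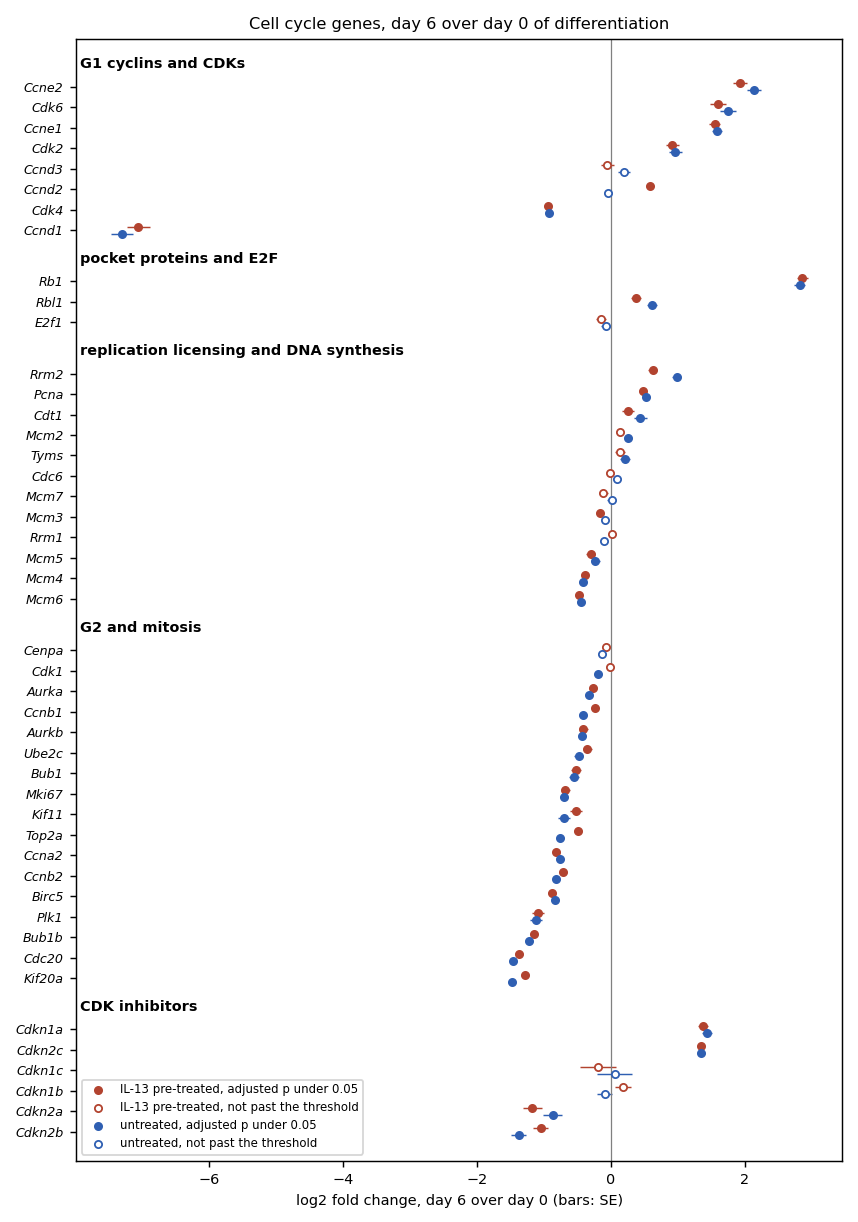
Log2 fold change of day 6 over day 0 for each of the 46 members by role (points, with SE bars), in IL-13 pre-treated and untreated cells. Filled points passed an adjusted p of 0.05. All filled points of the mitosis group lie left of 0, the replication group lies on both sides, and Ccnd1 stands alone near -7.

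Kif20a, a kinesin of the dividing cell's midzone, had the widest fall among the mitosis genes in untreated cells. It held 82.3, 75.9, 78.2 and 76.8 CPM at day 6, against 218, 224, 210.4 and 221 CPM at day 0 in untreated cells (-1.48 ± 0.06, adjusted p = 9.6e-16), although 29.3% of its exon bases overlap Cdc23 on the opposite strand. Cdc20, which activates the anaphase-promoting ubiquitin ligase, held 42.8, 39.4, 43.4 and 40.9 CPM at day 6, against 114, 117, 109.8 and 117 CPM at day 0 (-1.46 ± 0.06, adjusted p = 1.5e-15). Bub1b, the checkpoint kinase that restrains Cdc20, held 56.7, 55.3, 56.4 and 59.6 CPM at day 6, against 133, 132, 131 and 138 CPM at day 0 (-1.23 ± 0.06, adjusted p = 3.2e-14). Day 6 was 2.79-fold, 2.75-fold and 2.34-fold lower than day 0 for Kif20a, Cdc20 and Bub1b, with no overlap of their libraries. Plk1, a kinase of mitotic entry, fell by a similar size (-1.13 ± 0.09). A middle set ran from -0.70 for Mki67, which coats mitotic chromosomes, to -0.83 for Birc5 (survivin), and held Kif11, the motor that separates spindle poles, Top2a, which untangles DNA, Ccna2 (cyclin A2) and Ccnb2 (cyclin B2). The checkpoint kinase Bub1, the ubiquitin-conjugating enzyme Ube2c, the Aurora kinases Aurkb and Aurka, cyclin B1 (Ccnb1) and Cdk1 fell less, from -0.56 for Bub1 to -0.19 for Cdk1. Cdk1, the kinase that drives mitosis, lost its call without the 2 untreated libraries of highest nuclear RNA index. None of the genes was near absent at day 6: Mki67 still stood at 331 to 399 CPM in untreated cells, against 563 to 622 CPM at day 0.

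**Figure D3:**
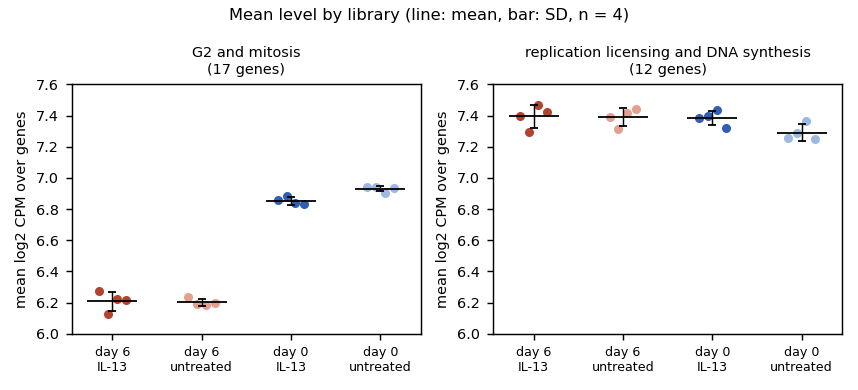
Mean log2 CPM over the 17 genes of G2 and mitosis and over the 12 genes of replication in each library (points), with group mean (line) and SD (bar, n = 4). The mitosis mean is 6.13 to 6.27 at day 6 and 6.83 to 6.94 at day 0, while the replication means of the 2 days overlap.

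Promoters of the replication and the mitosis genes are described here, and whether their letters have a part in the fall was not tested. RefSeq promoter windows (GRCm38.p6, 250 bases before to 50 after the start) were found for 37 of the 46 members, 11 of the 12 replication genes and 14 of the 17 mitosis genes among them. They were searched on both strands for letters like the E2F site (TTTCCCG, its close variant TTTCGCG, or the related letters TTTGCCG and likewise TTTGGCG), for letters like the cell cycle homology region, CHR (TTTGAA, or the related letters TTCGAA), and for CCAAT. E2F matches on opposite strands can overlap one another, as they do in Mcm6 and Mcm5. A gene was counted where any of its windows held the letters, since some genes have more than 1 window. CHR letters were found in 12 of 14 mitosis genes, 2 of 11 replication genes and 21.7% of all 27025 genes with a window. E2F letters were found in 2 of 14 mitosis genes, 6 of 11 replication genes and 7.65% of all genes. CCAAT was found in 13 of 14 mitosis genes, 8 of 11 replication genes and 41.1% of all genes, and CHR and CCAAT stood together in a window of 12 of 14 mitosis genes, against 8.61% of all genes. Over the 32851 single windows, 19.2% held CHR letters, 6.70% E2F letters and 37.4% CCAAT. Shown are the 2 members of each set with the smallest p for a fall in untreated cells that had a window and a match. Capitals mark the matches (E2F and CCAAT letters in Mcm6 and Mcm5, CHR and CCAAT letters in Cdc20 and Bub1b), as read on either strand, and each is written 5′ to 3′ on the strand of its gene.
Mcm6 (chr1:128359656-128359955, minus strand): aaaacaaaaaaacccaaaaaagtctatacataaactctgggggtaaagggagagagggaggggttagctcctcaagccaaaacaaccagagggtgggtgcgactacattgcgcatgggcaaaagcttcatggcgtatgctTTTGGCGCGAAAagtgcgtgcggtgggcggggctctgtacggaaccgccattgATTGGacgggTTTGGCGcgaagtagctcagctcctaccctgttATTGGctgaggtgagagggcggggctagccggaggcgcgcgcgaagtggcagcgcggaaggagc
Mcm5 (chr8:75109259-75109558, plus strand): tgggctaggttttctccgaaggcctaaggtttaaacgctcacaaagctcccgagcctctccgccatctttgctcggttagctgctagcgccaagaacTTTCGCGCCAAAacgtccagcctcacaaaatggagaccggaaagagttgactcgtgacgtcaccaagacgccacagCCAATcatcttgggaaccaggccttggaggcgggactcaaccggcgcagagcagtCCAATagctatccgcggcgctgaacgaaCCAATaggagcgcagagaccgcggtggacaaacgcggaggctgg
Cdc20 (chr4:118437294-118437593, minus strand): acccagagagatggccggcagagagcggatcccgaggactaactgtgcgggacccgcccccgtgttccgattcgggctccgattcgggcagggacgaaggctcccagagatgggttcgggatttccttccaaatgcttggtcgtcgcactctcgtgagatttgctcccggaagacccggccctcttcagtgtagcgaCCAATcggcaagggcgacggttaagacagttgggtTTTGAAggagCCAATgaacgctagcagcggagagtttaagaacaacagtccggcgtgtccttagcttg
Bub1b (chr2:118597961-118598260, plus strand): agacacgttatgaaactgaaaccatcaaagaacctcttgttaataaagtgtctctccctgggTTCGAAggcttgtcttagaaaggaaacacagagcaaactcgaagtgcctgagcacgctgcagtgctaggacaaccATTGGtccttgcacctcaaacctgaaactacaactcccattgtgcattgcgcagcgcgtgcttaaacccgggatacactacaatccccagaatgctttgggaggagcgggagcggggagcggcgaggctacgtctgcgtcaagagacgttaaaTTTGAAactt
Cdc20 thus carries CHR letters next to CCAAT close to its start, and Mcm6 and Mcm5 carry E2F letters on both strands at one place. Gene by gene, Cenpa, which was not called, held CHR and CCAAT letters, and Birc5, which fell, held neither. Ccnb1 fell without CHR letters, and Mcm2 and Mcm7, which did not fall, held CHR and CCAAT letters. A match is a description of the letters, not a shown site of binding.

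The 6 CDK inhibitors did not move as one: 2 rose, 2 fell and 2 did not pass the test, in each arm. All genes also went both ways (41.5% higher and 39% lower in untreated cells). Cdkn1a, which encodes p21 of the Cip/Kip group, held 278, 267, 281 and 329.9 CPM at day 6, against 97.1, 111, 116 and 104 CPM at day 0 in untreated cells, 2.70-fold higher (1.43 ± 0.07, adjusted p = 2.1e-13). Cdkn2c, which encodes p18 of the Ink4 group, held 123, 118, 125 and 118 CPM at day 6, against 48.3, 45.8, 48.8 and 48.0 CPM at day 0, 2.54-fold higher (1.34 ± 0.06, adjusted p = 3.5e-15). Each of these genes was higher in every day 6 library than in any of day 0, in IL-13 pre-treated cells too, with 1.37 for Cdkn1a and 1.34 for Cdkn2c.

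The falls were in the Ink4 genes that neighbour each other on chromosome 4. Cdkn2b (p15, chr4:89306299-89311039, minus strand) held 8.18, 10.3, 12.8 and 13.1 CPM at day 6, against 26.7, 31.1, 29.2 and 28.3 CPM at day 0 in untreated cells, 2.60-fold lower (-1.38 ± 0.11, adjusted p = 2.6e-10). Cdkn2a (chr4:89274471-89294653, minus strand) held 52.0, 50.7, 60.2 and 53.4 CPM at day 6, against 85.5, 76.9, 112 and 120.2 CPM at day 0, 1.82-fold lower (-0.87 ± 0.14, adjusted p = 2.7e-05). The day 0 libraries of Cdkn2a spread widely, yet all 4 lay above those of day 6. Cdkn2a encodes both p16 and p19Arf in different reading frames, and a count per gene cannot separate them. The log2 changes in IL-13 pre-treated cells were -1.05 ± 0.11 for Cdkn2b and -1.18 ± 0.14 for Cdkn2a.

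Cdkn1b (p27) and Cdkn1c (p57), the other Cip/Kip genes, did not pass the test between the days. Cdkn1b held 72.9, 72.1, 65.6 and 61.9 CPM at day 6 and 83.0, 67.6, 56.1 and 84.0 CPM at day 0 in untreated cells (-0.09 ± 0.11, adjusted p = 0.45). With the nuclear index as covariate Cdkn1b was called lower at day 6 in these cells (-0.41 ± 0.08, adjusted p = 3.8e-05). Cdkn1c was close to absent, with 0.901, 2.26, 1.78 and 2.49 CPM at day 6 and 1.33, 1.97, 1.78 and 2.14 CPM at day 0 (0.06 ± 0.26, adjusted p = 0.85); the wide SE comes with its few counts. The summed TPM of the 6 inhibitors was about level (626 ± 18.7 at day 6 and 627 ± 79.4 at day 0 in untreated cells, SD, n = 4), while its makeup changed. That level holds on the TPM scale, which carries no TMM factor, and not necessarily on the CPM scale of the tests. Cdkn2a made up 23.5% ± 1.41 at day 6 and 49.2% ± 5.16 at day 0, and Cdkn1a 41.4% ± 2.52 at day 6 and 17.9% ± 2.07 at day 0.

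**Figure D4:**
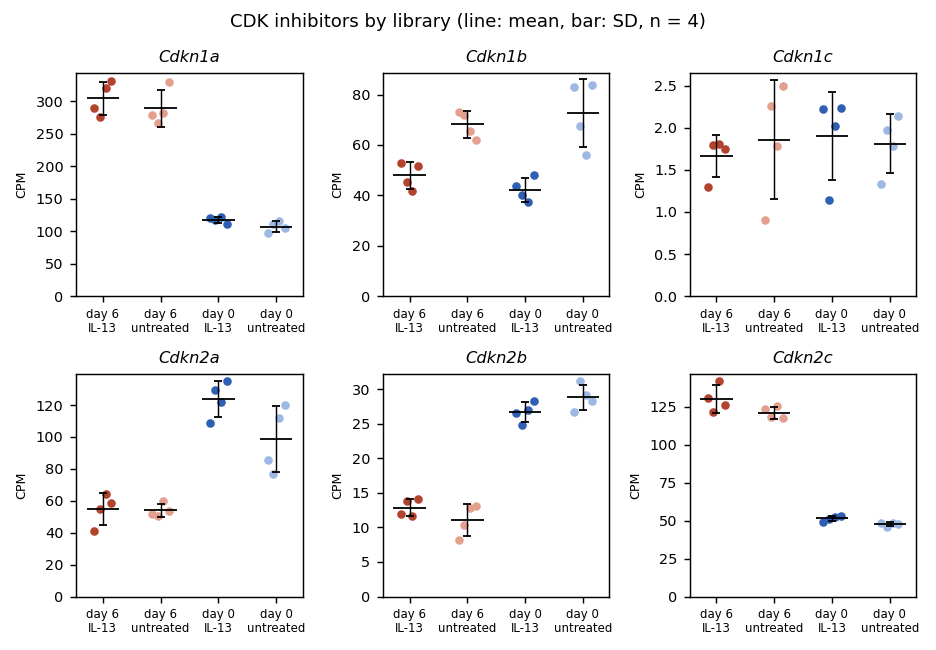
CPM of the 6 CDK inhibitors in each library (points), with the mean (line) and SD (bar) of the 4 libraries of a group, the groups along the x axis. Cdkn1a and Cdkn2c are higher and Cdkn2a and Cdkn2b lower in every day 6 library than in any day 0 library, and Cdkn1b is lower in the IL-13 libraries than in the untreated ones on each day.

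In TPM, the order of the members changed with the days. At day 6 in untreated cells Rrm2 (380.5), Pcna (368) and Cdk4 (333) led the 46, and at day 0 Cdk4 (735), Mcm6 (383) and Cdkn2a (311). Rrm2 and Pcna were close at day 6 (380.5 ± 16.2 and 368 ± 18.6, SD, n = 4), and their difference within libraries was not tested. The lowest at day 6 was Ccnd1 (0.456), below Cdkn1c (2.90), and at day 0 Cdk6 (3.12) and Cdkn1c (3.27) were lowest and within their spread of each other.

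Other genes of the same pathways were counted from lists chosen with earlier results of these data known. Over all genes tested, 41.5% were higher and 39% lower at day 6 in untreated cells. In IL-13 pre-treated cells the shares were 40.6% and 40.3%. Of 26 further mitosis genes 21 fell and 2 rose in untreated cells, with a median of -0.75, led by Kif23 (-1.93), Cenpe (-1.49) and Ndc80 (-1.43), a midbody kinesin and 2 kinetochore proteins. In the IL-13 arm 20 fell and 2 rose. Of 23 further replication genes 12 rose and 9 fell in untreated cells, among them the origin factors Orc6 (1.02) and Cdc45 (1.17) and the ligase Lig1 (-0.68). They went both ways, as the 12 members and all genes did. Of 16 E2F, pocket protein and MuvB genes 8 rose and 3 fell, with E2f2 3.74, the mitotic activator Foxm1 -1.01 and Lin9, a subunit of the MuvB complex, 0.85. Of 12 further CDK regulators 4 rose and 5 fell, including the phosphatase Cdc25a (1.21), the CDK-activating cyclin Ccnh (0.58) and the inhibitory kinase Pkmyt1 (0.81). Of 12 tested genes of p53 and its targets 5 rose and 6 fell. Zmat3 (-1.87), Ccng1 (-1.28) and Bax (-1.17) were among those that fell, and the highest log2 change of the list was 1.05. Cdkn1a, itself a p53 target, rose in the same cells. The part of p53 in that rise was not tested.

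Before differentiation began, the IL-13 pre-treated cells of day 0 contained less cyclin D1 and cyclin D2 transcript than untreated cells. Transcripts of p27 were lower and those of cyclin D3 slightly higher, calls that were lost with the nuclear index as covariate. Within a day the index and IL-13 cannot be told apart, since the index did not overlap between the treatments. Of the 46 members 3 were higher and 14 lower in IL-13 pre-treated cells, 17 in all, where 47.9% of the 12274 genes tested were called (23.7% higher, 24.2% lower). The members called were thus a smaller share than that background. The median of the members was 0.01, against -0.01 for all genes. By role, 1 rose and 4 fell of 8 G1 genes, 2 rose and 1 fell of 12 replication genes, 8 fell of 17 mitosis genes, 1 fell of 6 inhibitors and none of 3 pocket protein and E2F genes passed. Scaling by total counts in place of TMM gave 1 higher and 23 lower members, moved the median of all genes to -0.13, and split all called genes into 1682 higher and 4523 lower, against 2912 and 2969 with TMM.

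Ccnd2 carried the smallest p of the members. Its libraries held 450.3, 474, 439 and 462 CPM after IL-13, against 657, 687, 698 and 653 CPM in untreated cells. The groups lay far apart, and Ccnd2 was 1.49-fold lower after IL-13 (-0.58 ± 0.05, adjusted p = 6.8e-07). Ccnd1 held 69.4, 85.0, 81.3 and 65.1 CPM after IL-13, against 101, 100.05, 116 and 105 CPM in untreated cells. Here too every IL-13 library was below every untreated one, and Ccnd1 was 1.42-fold lower (-0.50 ± 0.08, adjusted p = 0.00017). Ccnd3 held 89.9, 104, 98.1 and 88.1 CPM after IL-13, against 67.7, 71.3, 87.3 and 77.9 CPM in untreated cells, all IL-13 libraries above all untreated ones (0.31 ± 0.07, adjusted p = 0.004). The summed TPM of the 3 D-type cyclins was 240 ± 9.72 after IL-13 and 379 ± 8.99 in untreated cells (SD, n = 4), on a TPM scale that carries no TMM factor. Ccnd1 and Ccnd2 were the only 2 of the 17 calls that held in all 16 alternatives. With the nuclear index as covariate they were -0.71 for Ccnd1 and -0.63 for Ccnd2, and no other member was called.

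Cdkn1b (chr6:134920401-134925513, plus strand) showed the widest difference of the members. Its libraries held 43.6, 40.0, 37.2 and 48.1 CPM after IL-13, against 83.0, 67.6, 56.1 and 84.0 CPM in untreated cells, 1.74-fold lower (-0.80 ± 0.14, adjusted p = 0.0016). The untreated libraries spread widely, in the same order as their nuclear RNA index of 6.15, 5.71, 5.29 and 5.99 except between libraries 1 and 4. With the index as covariate the difference of Cdkn1b was -0.09 ± 0.13 (adjusted p = 0.83) and its call was lost, while the call held in the other 15 alternatives, those that left out 1 library among them. Of the other inhibitors, Cdkn1a held 120.1, 118, 122 and 112 CPM after IL-13 and 97.1, 111, 116 and 104 CPM in untreated cells (0.12 ± 0.06, adjusted p = 0.079). Cdkn2a held 109, 129.6, 122 and 135 CPM after IL-13 and 85.5, 76.9, 112 and 120.2 CPM in untreated cells, groups that overlap (0.31 ± 0.15, adjusted p = 0.11). Neither passed the test, nor did Cdkn2b (-0.12), Cdkn2c (0.09) or Cdkn1c (0.07).

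Among the other members called at day 0, Rrm2 held 204, 211, 196 and 182 CPM after IL-13, against 174, 168, 167 and 161 CPM in untreated cells, all higher (0.23 ± 0.05, adjusted p = 0.0032), a call lost under scaling by total counts. Kif11 held 114, 107, 96.8 and 120.5 CPM after IL-13, against 166, 148, 123 and 154 CPM in untreated cells, all lower (-0.45 ± 0.09, adjusted p = 0.0023). Top2a held 399.8, 387, 357 and 381 CPM after IL-13, against 469, 451, 424 and 437 CPM in untreated cells, all lower (-0.24 ± 0.06, adjusted p = 0.0031). These 3 genes thus separated the groups, but they were picked by this same test, so that adds no support to their calls. Cdk1 held 196, 193, 196 and 197 CPM after IL-13, against 226, 218, 211 and 231 CPM in untreated cells (-0.20 ± 0.05, adjusted p = 0.005). Cdk2 was lower as well (-0.38 ± 0.10), as was Ccnb1 (-0.15 ± 0.04), a gene of which pseudogenes share 23.4% of the stretches of 50 bases. None of these differences exceeded the 1.36-fold of Kif11.

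The remaining calls at day 0 were small and depended on single libraries. Mcm7 was higher (0.15 ± 0.06; 262, 262, 285 and 254 CPM after IL-13, against 227, 237, 262 and 222 CPM in untreated cells) and Mcm4 lower (-0.13 ± 0.05; 259.7, 258, 254 and 239 CPM after IL-13, against 278, 275, 279 and 264 CPM in untreated cells), and the groups overlapped for Mcm7 but not for Mcm4. These 2 genes, Cdk6 (-0.24 ± 0.09), Bub1 (-0.16 ± 0.06) and Kif20a (-0.14 ± 0.05) each lost their call in 6 of the 8 fits that left out 1 library. Bub1b (-0.15 ± 0.05) lost it without untreated library 4 or IL-13 library 4, and Cenpa (-0.18 ± 0.06) without untreated library 4. The other 10 calls held without any single library. The pocket protein and E2F genes did not pass: Rb1 stood at 18.1 to 21.3 CPM after IL-13 and 20.4 to 23.5 CPM in untreated cells (-0.14 ± 0.08), Rbl1 at 40.5 to 47.4 and 43.7 to 50.4 CPM (-0.14 ± 0.07), and E2f1 at 49.97 to 55.1 and 47.2 to 53.3 CPM (0.09 ± 0.06).

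**Figure D5:**
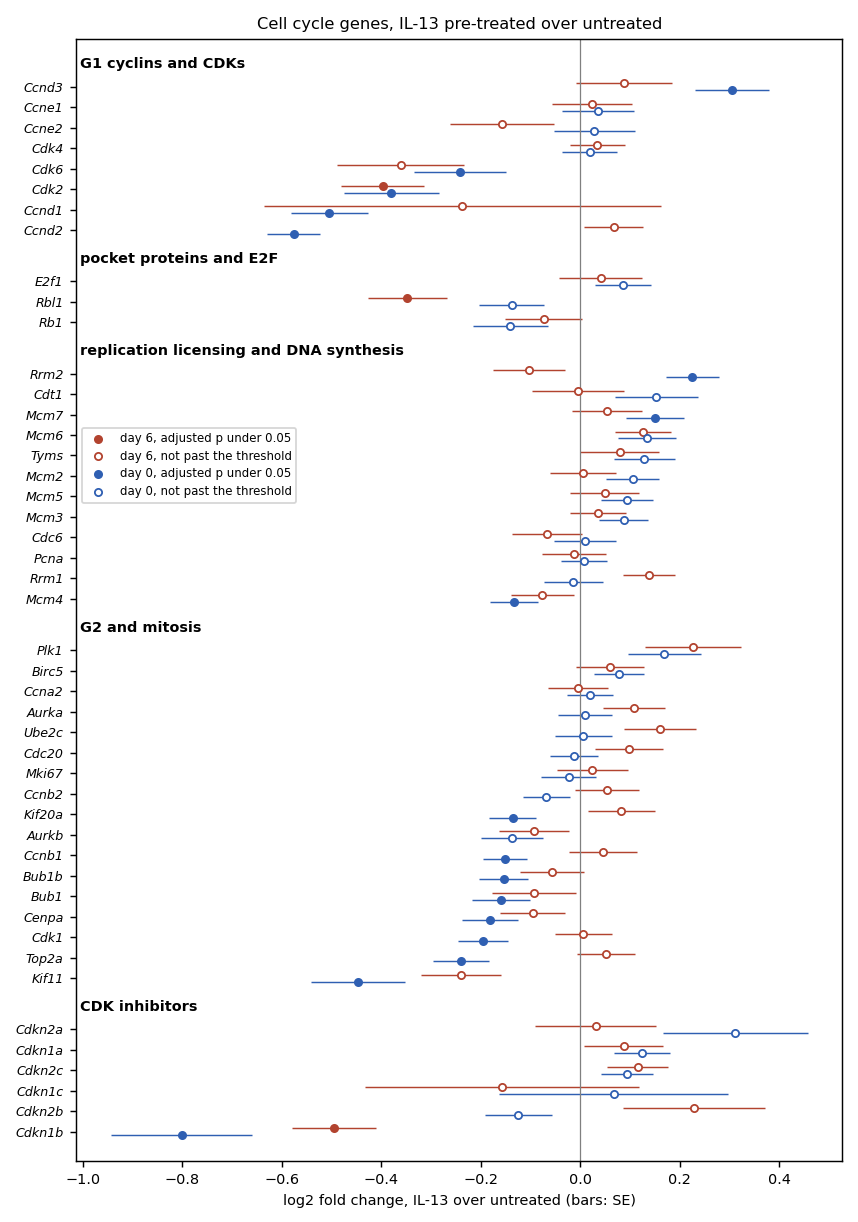
Log2 fold change of IL-13 over untreated cells at day 6 and day 0 for each of the 46 members by role (points, with SE bars). Filled points passed an adjusted p of 0.05: 3 at day 6 and 17 at day 0, with Ccnd2 far from 0 at day 0 and near 0 at day 6.

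In the further lists at day 0, 1 rose and 10 fell of 26 mitosis genes, 1 rose and 7 fell of 23 replication genes, 1 rose and 6 fell of 16 E2F and MuvB genes, 1 rose and 4 fell of 12 CDK regulators, and none rose and 5 fell of 12 tested p53 genes. Over all genes tested at day 0, 23.7% were higher and 24.2% lower. Of the 23 nuclear RNAs 22 fell.

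At day 6, few members differed between IL-13 pre-treated and untreated cells, as few of all genes did. Cdkn1b, Cdk2 and Rbl1 were lower in IL-13 pre-treated cells and none was higher, 3 of 46 members. That is near the background, since 6.55% of the 12352 genes tested were called (2.21% higher, 4.34% lower). Cdkn1b held 52.9, 45.2, 41.8 and 51.7 CPM after IL-13, against 72.9, 72.1, 65.6 and 61.9 CPM in untreated cells (-0.49 ± 0.08, adjusted p = 0.013). Cdk2 held 97.5, 83.9, 78.5 and 93.5 CPM after IL-13, against 131, 119, 103 and 116 CPM in untreated cells (-0.40 ± 0.08, adjusted p = 0.024). Rbl1 held 65.6, 53.3, 50.9 and 56.8 CPM after IL-13, against 78.8, 71.1, 72.0 and 68.9 CPM in untreated cells (-0.35 ± 0.08, adjusted p = 0.031). The libraries of the groups did not overlap for these 3 genes, which were picked by this same test. That adds no support to their calls, and the share of all genes that separate was not counted. None of these calls held in every fit that left out 1 library: the number of members called was 0 without untreated library 2 or IL-13 library 2, 1 without untreated library 1 or IL-13 library 3, and 6 without IL-13 library 1. With the nuclear index as covariate none was called. The D-type cyclins were near each other, with Ccnd2 at 734, 678, 665 and 646 CPM after IL-13 and 674, 685, 651 and 611 CPM in untreated cells (0.07 ± 0.06, adjusted p = 0.48), ranges that overlap. The 17 mitosis genes ranged from -0.24 for Kif11 to 0.23 for Plk1, and none passed the test. Of the further lists, 1 gene each fell among the replication genes (Cdc7, -0.59), the E2F and MuvB genes (E2f5, -0.43) and the CDK regulators (Skp2, -0.69, which targets p27 for breakdown), and none of the 26 mitosis genes was called. Among the p53 genes Ccng1 rose (0.25) and Mdm2 fell (-0.29).

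The IL-13 difference itself changed between the days for 3 members, with 8.06% of the 13157 genes tested called (3.12% higher, 4.95% lower at day 6 than at day 0). Ccnd2 was the clearest: the IL-13 difference at day 6 exceeded that of day 0 by 0.62 ± 0.08 (adjusted p = 1.3e-05), a call that held in all 23 alternatives. Top2a differed by 0.27 ± 0.08 (adjusted p = 0.046), with 296, 264, 253 and 273 CPM after IL-13 and 265, 272, 267 and 251 CPM in untreated cells at day 6. That call was lost without the 2 untreated libraries of each day that were highest in nuclear RNA index, and held in the other 22 alternatives. Rrm2 differed by -0.36 ± 0.09 (adjusted p = 0.021), with 327, 269, 290.1 and 334 CPM after IL-13 and 334, 310.3, 329.7 and 348 CPM in untreated cells at day 6, and kept its call in 10 of 23 alternatives. Its call was lost without untreated library 2 or 4 or IL-13 library 1, 2 or 3 of day 0, and without untreated library 1, 3 or 4 or IL-13 library 2 or 3 of day 6. The other 43 members, Cdkn1b (0.28 ± 0.16; 0.33 ± 0.09 and called with the nuclear index as covariate) and Ccnd1 (0.24 ± 0.40) among them, did not pass this test. For Ccnd1 the SE is wide, since so few of its counts were left at day 6. In the further lists 2 of 26 mitosis genes were higher in this comparison, Nusap1 (0.29) and Cenpf (0.42), both of the mitotic spindle or kinetochore. Of the 23 replication genes 2 were lower, the origin factor Cdc45 (-0.31) among them, and of the 12 tested p53 genes 3 were higher, Trp53inp1 (0.82), Phlda3 (0.38) and Zmat3 (0.34). No E2F and MuvB gene or CDK regulator passed this test.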

How the data were processed

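The values came from 2 tables of the same 41325 genes, 1 for day 6 and 1 for day 0, with 16 libraries in all. Per the file headers, the authors deposited for each library a total read count per gene, whole numbers with no normalization, and a TPM value per gene, which scales counts by length and depth. The submitters' processing notes name the build mm10; the aligner, counter and annotation, and whether strand was used, were not given in the sources used here.

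Counts were tested with edgeR 4.0.16 (robust quasi-likelihood fit, TMM scaling, filterByExpr at a minimum count of 10 and minimum total of 15) in R 4.3.3, with Benjamini-Hochberg adjustment over all genes tested, and a gene was called where that value was under 0.05. Each IL-13 comparison was fitted on the 8 libraries of its day. Comparisons across days, including how the IL-13 effect differed between them, were fitted on all 16. The SE was taken as the log2 fold change over the square root of the quasi-likelihood F. Alternatives were total count scaling, DESeq2 size factors, DESeq2 1.42.0, no filter, a replicate block, the nuclear RNA index as a covariate, all 16 libraries in 1 fit, and leaving out each library. The TPM values were used for shares and order only. Totals of 15253031 to 18112087 counts make counting error matter near 1 CPM, as for Ccnd1 at day 6 and Cdkn1c.

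Members and lists were chosen with earlier results of these data known. Values per library are given for the 3 members of each role with the smallest p between the days in untreated cells and for IL-13 at day 0, for all inhibitors, and for members called for IL-13 at day 6 or in the difference of effects; of each further list, up to 3 genes with the smallest p were named, apart from 1 gene that is not reported here. Counts of every 2 libraries of a group differed by more than sampling noise, and all 16 were kept.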

Additional observations from a re-analysis of the deposited data

Results flagged for a closer look

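Among 184 groups of 4 libraries (46 members in 4 groups), 8 had 1 library far from the other 3, and chance flags about 1 in 20 such groups. In untreated cells at day 6, library 2 was low for Cdc6 (26.1 CPM, the others 28.8) and for Mcm5 (132 CPM, the others 148 to 151), library 1 was high for Birc5 (45.4 CPM, the others 40.6 to 41.4), and library 3 was low for Kif11 (81.5 CPM, the others 93.2 to 95.5). In IL-13 pre-treated cells at day 6, library 1 was low for Cdkn1c (1.30 CPM, the others 1.75 to 1.81). In IL-13 pre-treated cells at day 0, library 4 was low for Pcna (186 CPM, the others 198 to 199.6) and library 3 low for Kif20a (198 CPM, the others 201 to 202). In untreated cells at day 0, library 4 was high for Pcna (195 CPM, the others 192).

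The IL-13 difference changed between the days for 3 members in edgeR's test of that difference: Ccnd2 by a log2 value of 0.62, Top2a by 0.27 and Rrm2 by -0.36, at day 6 relative to day 0.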

How the results depend on the processing

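Between the days, the number of members called stayed within 1.5 times of the reported 36 in untreated and 35 in IL-13 pre-treated cells in every alternative run. The IL-13 comparisons depended on the processing, and the cause was not tested. In the fits with the nuclear index as covariate, IL-13 and the index cannot be told apart. Their libraries did not overlap in the index on either day. At day 0, the 17 members called became 2 with the nuclear index as covariate, 11 with all 16 libraries in 1 fit and 7 without the 2 untreated libraries highest in that index, an alternative chosen after seeing the data. All genes called there went to 739 with the covariate and 3485 without those 2 libraries, against 5881. With the covariate, signs turned, none of them called, for Bub1 (0.0198), Cdk2 (0.158 at day 0, 0.0503 at day 6), Cdk6 (0.0478), Cenpa (0.00906), Kif11 (0.0596) and Mcm7 (-0.0840), and Pcna was called lower under total count scaling (-0.112). At day 6, the 3 members called became 0 with the covariate, 0 without those 2 libraries, and 0 to 6 when 1 library was left out. All genes called at day 6 (809) became 1470 with DESeq2, 1405 with all 16 libraries in 1 fit, 0 with the covariate (1264 at an unadjusted p under 0.05), 2 without those 2 libraries, and 60 to 2328 when 1 library was left out. For the difference of the IL-13 effect, the 3 members became 5 with DESeq2, 7 with the covariate and 1 without the 2 libraries of each day, and all genes called (1061) became 2089 and 545 in the last 2 of these. Total count scaling split the called genes 53 higher and 1032 lower at day 6, against 273 and 536, and 516 and 498 for the difference of effects, against 410 and 651; DESeq2 size factors gave 509 and 505 there.

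The replicate numbers share only a number in the labels. Deviations of same-numbered libraries from their group means correlated above 0.1 in 9 of 16 pairs (from -0.083 to 0.215). A library correlated best with its own number in 19 of 32 cases, a hint of pairing from the data alone. The labels give no pairing, so the main fits left it out, and whether the numbers pair samples is not settled. With a replicate block, 25 members were called for IL-13 at day 0, against 17 without it. All genes called at day 0 became 6518 of the 12274 tested, against 5881. At day 6, 6 members were called, against 3, and all genes called became 2812, against 809. For the difference of effects all genes called became 1608, against 1061. Depth limits Ccnd1 at day 6 and Cdkn1c, which had few counts.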
